A study of Mus musculus with 16 samples.

Results

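The Peg3 imprinted domain on mouse chromosome 7 was represented by 4 genes, Peg3, Usp29, Zim1 and Zfp264, taken by name from 2 deposited tables. All 4 were among the 55471 genes of the CpG methylation table, and 3 of the 4 were among the 43984 genes of the histone table, in which no row carried the name Zfp264. The domain was selected on CpG methylation, because the line TTF4, whose methylation was high at most genes, had a low fraction there. Methylation values of the members are therefore given as a description without a test. The low fraction was found at 2 of the 4 members, Peg3 and Usp29, whose start sites are neighbours, while at Zim1 and Zfp264 TTF4 had the highest fraction of the 4 lines, so that the description of the domain as low in TTF4 held for the Peg3 and Usp29 start and not for the whole domain.

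Pluripotent cells (iPSCs) had been induced from kidney proximal tubule cells (lines PTC11 and PTC12) and from tail tip fibroblasts (lines TTF1 and TTF4) of adult littermate mice. All mice carried SLC34a1-GCE, tdTomato, rtTAROSA (neo-in) and OKMS-250, so that Oct4, Klf4, c-Myc and Sox2 were switched on by doxycycline in cells in which Cre had acted. In proximal tubule cells, sorted on their fluorescent labels, Cre was driven by the SLC34a1 promoter and activated by tamoxifen, whereas tail tip fibroblasts received Cre from a non-integrating plasmid. Each line was a clone that no longer needed doxycycline and was kept on mouse embryonic fibroblast feeder cells, so that a line is 1 clone and origin cannot be told apart from the way Cre was delivered. Each line had 1 library per assay for H3K4me3, H3K36me3 and CpG methylation, and of the 4 H3K27me3 libraries both PTC libraries carried the name of line PTC11.

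An imprinted gene is expressed from the copy inherited from a given parent, and the choice is set by DNA methylation laid down in the germ line. The Peg3 domain is controlled from a CpG-rich region that spans the divergent start of Peg3 and Usp29 and reaches into the first intron of Peg3. This region is methylated on the maternal copy and unmethylated on the paternal copy, so that a cell with both marks intact shows an intermediate fraction when the copies are read together. Peg3, which encodes a large zinc finger protein, and Usp29, which encodes a protease of the ubiquitin-specific family, are expressed from the paternal copy. Zim1, a zinc finger gene on the other side of Peg3, is expressed from the maternal copy, and Zfp264 is a paternally expressed zinc finger gene at the far end of the domain. The deposited fractions do not separate the parental copies.

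On mm10, Peg3 lies at chr7:6703892-6730431 on the minus strand and Usp29 at chr7:6730578-6967219 on the plus strand, and both are protein coding. Their transcription start sites (TSSs) are 147 bp apart and point away from each other. Zim1, at chr7:6671269-6696450 on the minus strand, is protein coding and starts 34 kb from Peg3. Zfp264, at chr7:6977246-6991087 on the plus strand, is annotated as a transcribed unprocessed pseudogene. It starts 247 kb from Peg3, in an exon, and 174 bp from the start of Zim3 on the opposite strand. Within 1000 bp to each side of the TSS, the genome holds 92 CpGs at Peg3, 83 at Usp29, 46 at Zim1 and 50 at Zfp264, against a median of 25 over 55348 genes. The windows of Peg3 and Usp29 share 92.7% of their length and 82 CpGs, so that their fractions are not independent measurements.

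Reference sequence of these starts is shown to make clear what the methylation values were read from, with 1 stretch from the shared start of Peg3 and Usp29, 1 from the first intron of Peg3, and 1 before the start of each of the other members. Capitals mark CpGs, except in the intron. The gap stretch is everything between both genes, chr7:6730432-6730577 on the plus strand, with 5 CpGs in 146 bases, the Zim1 stretch lies before that gene at chr7:6696451-6696700 on the minus strand, with 13 CpGs in 250 bases, and the Zfp264 stretch lies before that gene at chr7:6976996-6977245 on the plus strand, with 12 CpGs in 250 bases.
Peg3 and Usp29 gap: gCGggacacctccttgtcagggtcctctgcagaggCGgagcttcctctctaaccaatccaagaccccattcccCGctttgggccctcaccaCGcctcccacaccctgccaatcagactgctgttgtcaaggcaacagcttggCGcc
Peg3 first intron: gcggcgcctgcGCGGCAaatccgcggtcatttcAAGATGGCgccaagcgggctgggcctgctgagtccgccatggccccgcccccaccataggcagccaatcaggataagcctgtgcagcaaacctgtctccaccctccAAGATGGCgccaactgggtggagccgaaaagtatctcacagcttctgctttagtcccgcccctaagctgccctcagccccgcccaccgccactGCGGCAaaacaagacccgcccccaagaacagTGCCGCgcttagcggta
Zim1 start: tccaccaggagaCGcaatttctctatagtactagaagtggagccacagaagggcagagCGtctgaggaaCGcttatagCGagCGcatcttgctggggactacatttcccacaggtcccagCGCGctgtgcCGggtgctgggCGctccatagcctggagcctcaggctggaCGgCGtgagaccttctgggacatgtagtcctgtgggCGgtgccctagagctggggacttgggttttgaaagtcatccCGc
Zfp264 start: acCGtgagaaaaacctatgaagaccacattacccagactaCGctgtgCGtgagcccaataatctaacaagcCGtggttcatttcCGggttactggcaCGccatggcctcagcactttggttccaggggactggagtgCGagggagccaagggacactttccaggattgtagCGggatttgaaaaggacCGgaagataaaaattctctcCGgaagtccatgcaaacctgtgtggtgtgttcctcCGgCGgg

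The stretch of the first intron of Peg3, chr7:6729450-6729729 on the plus strand, holds 20 CpGs in 280 bases. It was chosen as the stretch of that length in the intron with the most motif matches, so nothing is read from their number in it. Its capitals mark 5 motif matches, 3 to TGCCGC, shown as its reverse complement where the match is on the minus strand, the core bound by the imprint-protecting protein Zfp57 when methylated, and 2 to AANATGGC, a core of the site of the factor Yy1, which is known to bind this intron. Both motifs were searched on both strands, and neither overlaps the other in this stretch. Within 1000 bp of the TSS, TGCCGC matched 6 times at Peg3, 5 times at Usp29, once at Zim1 and not at Zfp264, and 28.5% of all windows of that length held at least 1 match while 0.244% held 6 or more. AANATGGC matched 2 times at Peg3, 1 time at Usp29 and 1 time at Zfp264, and 33.6% of windows held at least 1. Within 5000 bp to each side, Peg3 had 13 AANATGGC matches, a number reached in 0.0325% of 55348 windows, and 8 TGCCGC matches, reached in 0.379%. The first intron of Peg3, chr7:6726575-6730257, held 12 of these 13 and all 8. TGCCGC contains a CpG, and the 1000 bp window of Peg3 holds 92 CpGs against a median of 25. The shares are over all windows, and windows of like CpG content were not compared. A match describes the letters and is not a measured binding site.

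CpG methylation at the start of Peg3 differed widely among the lines. The fraction of methylated CpGs at Peg3 was 0.319 in PTC11 and 0.804 in PTC12, against 0.496 in TTF1 and 0.0679 in TTF4. At Usp29, which shares most of the same CpGs, PTC11 had 0.305, PTC12 0.809, TTF1 0.509 and TTF4 0.0539. At both, the order was TTF4, PTC11, TTF1 and PTC12 from low to high, so that lines of the same origin did not lie next to each other. The table gives no coverage and each line has 1 methylation sample, so that no error can be attached to a single fraction and it cannot be said which neighbours in this order differ beyond the spread of repeated samples. The fractions at Peg3 and Usp29 differed from each other by little in each line. A short RNA gene inside Usp29, Gm27675, starts 20 bp from the start of Usp29 and had 0.287, 0.806, 0.492 and 0.0573 in the same lines, from a largely shared window.

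Zim1 and Zfp264 had the other order for TTF4. At Zim1 PTC11 had a fraction of 0.269, PTC12 of 0.583, TTF1 of 0.517 and TTF4 of 0.756, so that PTC11 was lowest and TTF4 highest. At Zfp264 the PTC lines had 0.632 and 0.806 and the TTF lines 0.664 and 0.874, so that TTF4 was again highest, next to PTC12. TTF4 minus the mean of the other 3 lines was -0.472 at Peg3, -0.487 at Usp29, 0.299 at Zim1 and 0.173 at Zfp264. The other 3 lines themselves spread around their mean with an SD of 0.246 at Peg3, 0.254 at Usp29, 0.166 at Zim1 and 0.0929 at Zfp264.

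**Figure D1:**
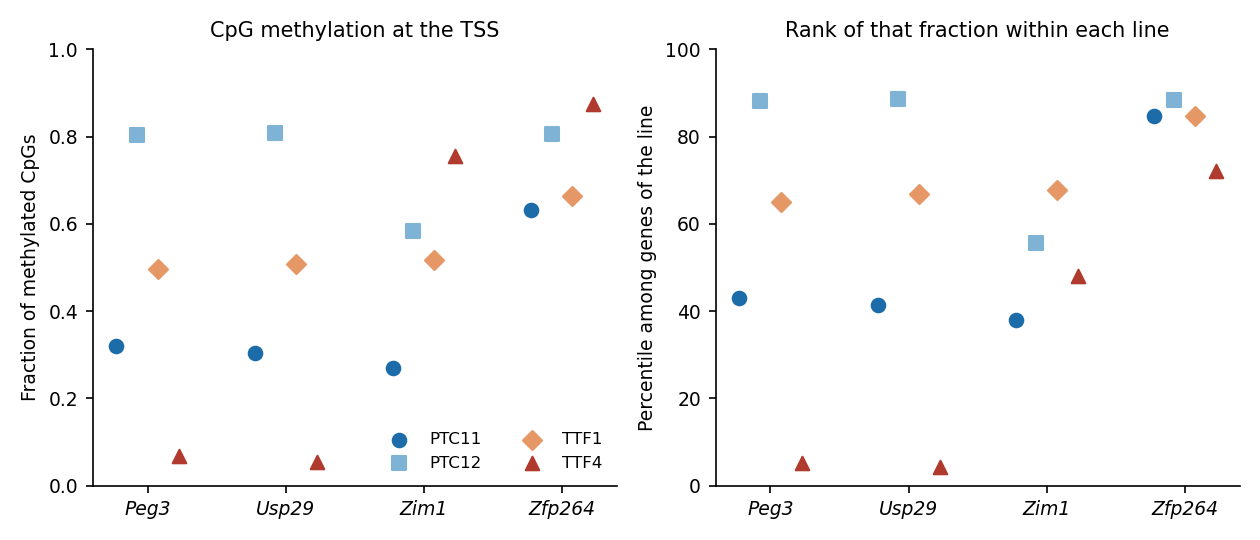
CpG methylation at the TSS of the 4 members in each line, as the fraction of methylated CpGs (left) and as the percentile of that fraction among the 50657 genes with a value in all lines, within the line (right). Each point is 1 line with 1 sample, and TTF4 sits at 0.0679 and 0.0539 at Peg3 and Usp29 but at 0.756 and 0.874 at Zim1 and Zfp264.

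TTF4 stood apart from the other lines over the whole table. Its fractions averaged 0.649 over the table, and those of the other lines 0.372 (PTC11), 0.482 (PTC12) and 0.379 (TTF1). Of 50657 genes with a value in all 4 lines, TTF4 was above the 3 others at 75.4% and below them at 2.99%. As the members were chosen by the low fraction in TTF4, nothing is read from these shares for Peg3 and Usp29, and Zim1 and Zfp264 followed the more common order. Ranked within its own line, Peg3 lay at percentile 42.9 for PTC11, 88.1 for PTC12, 65.0 for TTF1 and 5.23 for TTF4. On this rank scale Zim1 lay at 38.0, 55.7, 67.8 and 48.0, and Zfp264 at 84.7, 88.4, 84.6 and 72.1, so that on ranks TTF4 was no longer the highest line at these 2 genes.

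Among the 10 annotated starts nearest to Peg3, 5 to each side, TTF4 was lowest at Usp29 and Gm27675 only. Of the 5 annotated starts nearest to Peg3 on the side of Zim1, TTF4 was highest at 4, Zim1, Zim2, Gm7587 and Olfr1349, and lay just under PTC12 at Olfr1350. As TTF4 was highest at 75.4% of all genes, nothing is read from this count. Zim2, a further gene of the domain, 68.1 kb from Peg3, had 0.575 and 0.50 in the PTC lines, 0.525 in TTF1 and 0.898 in TTF4. On the other side, beyond Usp29 and Gm27675, the next start was Gm44862, 12.2 kb from Peg3 and inside Usp29, with 0.468, 0.760, 0.312 and 0.918. It was followed by Gm44863 at 22.6 kb, with 0.646, 0.415, 0.788 and 0.567, and by Mir3099 at 73.2 kb, with 0.471, 0.310, 0.692 and 0.843. Zim3, antisense to the far part of Usp29, had 0.608, 0.799, 0.607 and 0.847, close to Zfp264, whose window it largely shares. Peg3os and Apeg3, further transcripts of the domain, were not analysed here, and Zim2 and Zim3 were analysed for methylation only.

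Within 300 kb of the TSS of Peg3, 28 annotated starts had a value in all lines. Without Peg3, Usp29 and Gm27675, TTF4 was highest at 20 of the remaining 25 and lowest at 1, the olfactory receptor gene Olfr1346, singled out for this, where it was 0.333. Over all 50657 genes TTF4 was highest at 75.4% and lowest at 2.99%, so nothing particular to the region is read from these counts. The median fraction of TTF4 over these 25 was 0.833.

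**Figure D2:**
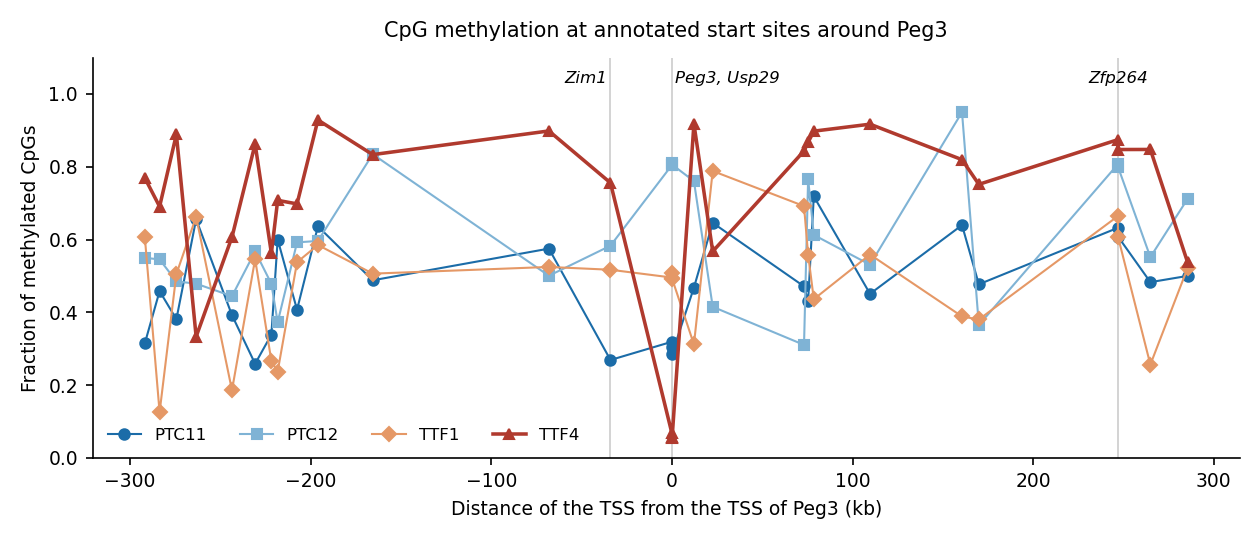
Fraction of methylated CpGs at the 28 annotated start sites within 300 kb of Peg3, by distance from the TSS of Peg3 in kb, with 1 point per start and line. The thin lines only join the points of a line. TTF4 falls from 0.756 at Zim1 to 0.0679 at Peg3 and stands at 0.918 at the next start beyond Usp29.

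The members were chosen by the low fraction of TTF4, so the place of Peg3 and Usp29 among all genes by that deficit only describes the choice, and nothing is read from it. At 32 of 50657 genes, Peg3 included, TTF4 lay as far below the mean of the other lines as at Peg3, and at 28 as far as at Usp29. Of the 15629 genes with at least 50 CpGs in the window, Usp29 and Peg3 had the lowest differences, followed by Gm27675 at -0.471 and then by Gm9954 on chromosome 5, singled out after its values were seen, at -0.357. The minimum of 50 CpGs was not planned. Usp29, Peg3 and Gm27675 largely share their windows, so they are not separate observations. Among 50576 genes outside 1 Mb, those with fractions like those of Peg3 included Igkv1-108, Gm7255, Ighv2-7 and Lce1a2, at root mean square differences of 0.0563 to 0.100 over the 4 lines, and their windows held 2 to 7 CpGs.

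At imprinted genes outside the domain TTF4 was mostly the highest line. Of 38 listed imprinted genes, 37 had a value in all lines, and TTF4 was highest at 26 and lowest at 3, against 75.4% and 2.99% over all genes. The 3 were Inpp5f, with 0.327, 0.433, 0.403 and 0.282 in PTC11, PTC12, TTF1 and TTF4, Magel2, with 0.298, 0.264, 0.209 and 0.204, and Rasgrf1, with 0.0476, 0.0329, 0.0141 and 0.0132. TTF4 minus the mean of the others was -0.106 at Inpp5f and nearer to 0 at Magel2 and Rasgrf1. The median difference over the 37 was 0.227, close to 0.231 over all genes. All these fractions were read within 1000 bp of the TSS, and whether that window takes in the control region of a gene was not checked. Genes whose control region is also methylated on the maternal copy varied in the place of TTF4 at their TSS, and no tally was made of them. Inpp5f, above, is such a gene. Those named here are examples, and their places do not give the shares of that class. Over the whole list TTF4 was highest at 26 of 37 genes, with Nnat, Nap1l5, Snrpn, Impact, Zrsr1 and Mcts2 among these. Mest, a paternally expressed gene, had 0.693, 0.906, 0.390 and 0.828, and Peg13, a non-coding RNA, had 0.802, 0.970, 0.471 and 0.956, with TTF4 between the other lines. Others were among the 5 genes of the list with the largest differences above the other lines. Kcnq1ot1, a paternally expressed long non-coding RNA, had 0.114, 0.426, 0.229 and 0.948, Airn, the antisense RNA of the Igf2r domain, had 0.336, 0.342, 0.250 and 0.882, and Plagl1, a zinc finger gene, had 0.402, 0.409, 0.184 and 0.880. Sgce and Peg10, a divergent pair of paternally expressed genes on chromosome 6, had 0.463 and 0.454 in TTF4, between the other lines. At the start of H19, a gene whose control region is methylated on the paternal copy, the lines had 0.50, 0.734, 0.777 and 0.974. These are values of the start and not of the control region as such.

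**Figure D3:**
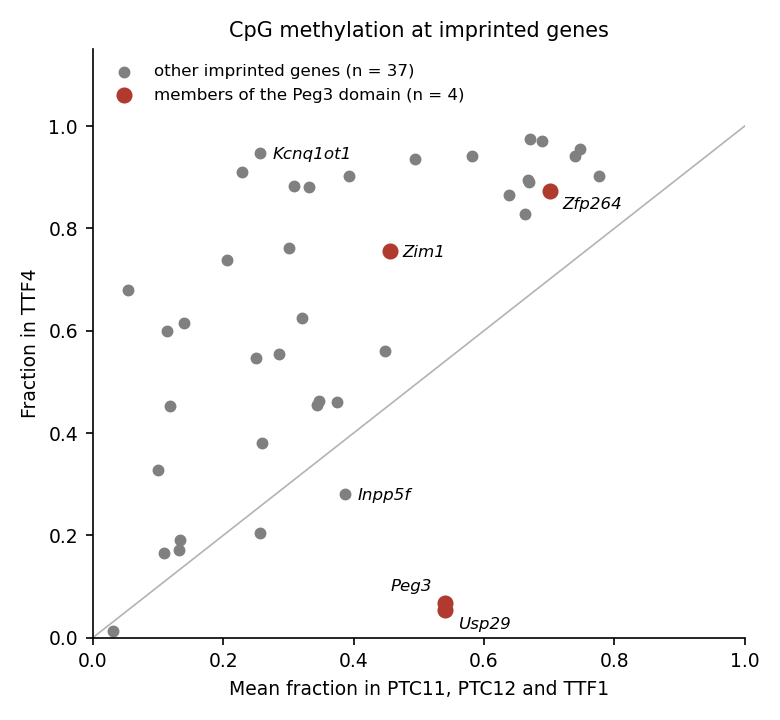
Fraction of methylated CpGs at imprinted genes in TTF4 (vertical) against the mean of PTC11, PTC12 and TTF1 (horizontal), for 37 imprinted genes outside the Peg3 domain in grey and the 4 members in red. Points under the diagonal are lower in TTF4, and Peg3 and Usp29 lie farthest below it, with Inpp5f next at 0.282.

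The chromatin marks were compared for a separate question, whether the start and the body of Peg3 differed between lines of PTC and TTF origin. With 2 lines per origin the comparison could not settle it. Neither mark chose the members. H3K4me3 marks active start sites and is usually found on the unmethylated copy of an imprinted start, and H3K36me3 marks the bodies of transcribed genes. Values are RPKM above input averaged over called peaks, and a gene without a peak has no value. Usp29 was listed in the histone table by its last part only, at chr7:6961160-6963769, and had no value in any library for any mark. Its start is covered by an unnamed locus at chr7:6730569-6770155, which is given here in its place, and another unnamed locus at chr7:6977083-6992178 overlaps Zfp264 and Zim3. Both loci were chosen after their values were seen, by position.

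All lines had an H3K4me3 peak at the start of Peg3. PTC11 had 2.94 RPKM of H3K4me3 at Peg3, PTC12 had 4.55, TTF1 had 4.93 and TTF4 had 3.39. At the locus over the start of Usp29 it was 3.30, 4.63, 5.47 and 3.39, with the same deposited value as Peg3 in TTF4. H3K4me3 was averaged around each TSS and both starts lie close together, so the locus is not a measurement independent of Peg3. PTC11 and TTF4 were low and PTC12 and TTF1 high at both, so that the origins overlapped. The median H3K4me3 over all genes with a value had the same split, with 3.69 in PTC11 and 3.65 in TTF4 against 4.59 in PTC12 and 5.01 in TTF1. Relative to that median, Peg3 was at ratios of 0.797 and 0.991 in the PTC lines and 0.983 and 0.928 in TTF1 and TTF4. Among the 13709 genes with a value in each line, Peg3 lay at H3K4me3 percentile 11 for PTC11, 28.8 for PTC12, 29.8 for TTF1 and 31.1 for TTF4. TTF4 was thus highest by percentile among these shared genes, PTC12 by the ratio to the median and TTF1 in RPKM. Among all genes with a value in the given line, the percentiles were 13.7, 49.2, 48.4 and 36.2, with PTC12 highest. PTC11 was lowest on each of these scales.

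TTF lines averaged 4.16 ± 1.09 RPKM of H3K4me3 at Peg3 (SD, n = 2 lines) and PTC lines 3.75 ± 1.14 (SD, n = 2 lines). TTF minus PTC was 0.12 on the log2(RPKM + 1) scale, with an SE of 0.37, a 95% interval from -0.60 to 0.85 and a limma adjusted p of 1. The locus over the start of Usp29, which is not independent of Peg3 in this mark, differed by 0.12, with an interval from -0.65 to 0.89. None of the tested members and loci was called, against a background of 0.481% of the 13709 genes tested. The direction at Peg3 turned to -0.12 without PTC11 and to -0.09 without TTF1. An exact permutation test over 2 lines against 2 cannot give a two-sided p under 0.33.

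The H3K4me3 of Zim1, without a peak in PTC11, was 3.24 RPKM in PTC12, against 2.73 and 2.64 in the TTF lines. The locus over Zfp264 had 1.93 in PTC12 and 2.97 in TTF1 and no peak in PTC11 or TTF4. Both were below Peg3 in every line with a value, and neither had a value in all 4 lines. When genes with a value in at least 1 line of each origin were fitted, TTF minus PTC was -0.20 at Zim1 (95% interval from -0.86 to 0.46) and 0.44 at the locus over Zfp264 (from -0.19 to 1.07), each with a limma adjusted p of 1.

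Over the body of Peg3, H3K36me3 reached 2.14 RPKM in PTC11 and 4.73 in PTC12, and 1.30 in TTF1 and 2.68 in TTF4. The lines differed in the level of this mark over all genes, with medians of 1.60 and 3.88 in the PTC lines and 1.18 and 4.01 in TTF1 and TTF4. Set against the median of its line, Peg3 was at ratios of 1.34 and 1.22 in the PTC lines, 1.11 in TTF1 and 0.670 in TTF4. Among the 17039 genes with a value in all lines it lay at percentile 87.4, 67.1, 61.0 and 14.6. TTF4 was thus the lowest line at Peg3 relative to its other genes, which was also the case at 22.8% of the 17039 genes, and this comparison was chosen after the values were seen. The locus from the start of Usp29 had 1.80, 4.16, 1.32 and 3.08 RPKM, at percentiles 66.1, 53.4, 63.0 and 21.4.

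The H3K36me3 of Zim1 was highest in TTF4, with 2.02 RPKM for PTC11, no peak for PTC12, 1.40 for TTF1 and 5.58 for TTF4. Relative to the line median these were ratios of 1.26, 1.19 and 1.39, so that in TTF4 Zim1 was above and Peg3 below the median of the line. This contrast rests on 1 library, and the share of genes with a like contrast was not computed. Among the genes with a value in the given line, Zim1 lay at percentile 81.5 in PTC11, 72.1 in TTF1 and 83.3 in TTF4, so that TTF4 was close to PTC11. The locus over Zfp264 had 2.09, 2.22, 0.805 and 3.18 RPKM, at ratios of 1.30, 0.572, 0.684 and 0.795. In the 3 lines where both genes had a value, H3K36me3 of Zim1 was close to that of Peg3 in PTC11 and TTF1 and higher in TTF4. The fit that allowed missing values gave a difference of TTF minus PTC of 0.40 at Zim1 (95% interval from -2.10 to 2.89, limma adjusted p of 1).

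**Figure D4:**
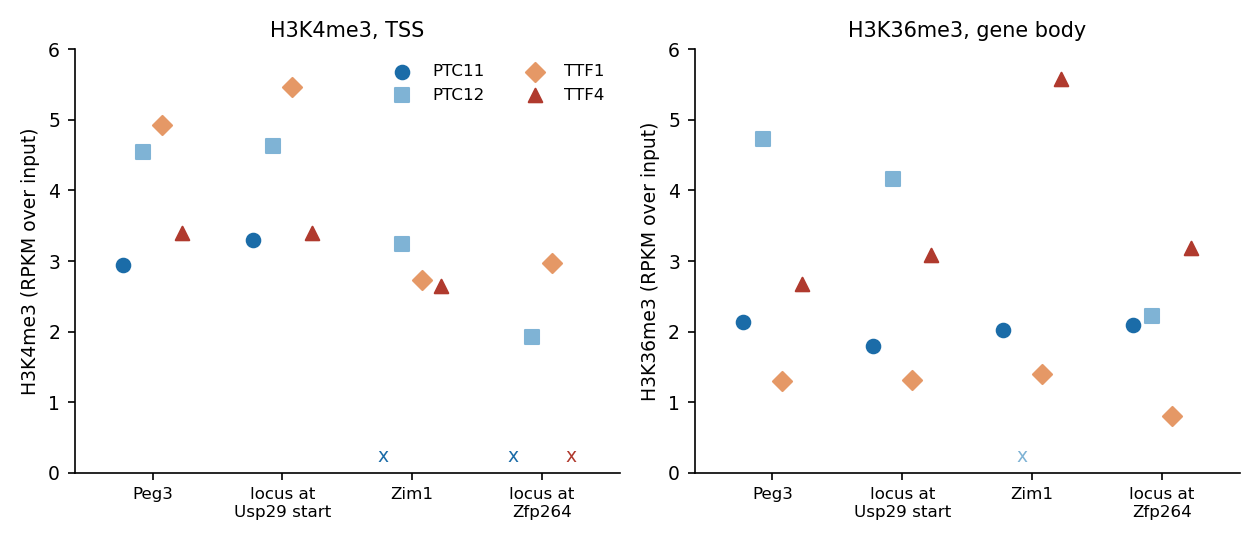
H3K4me3 at the TSS (left) and H3K36me3 over the gene body (right), in RPKM above input, for Peg3, the unnamed locus over the start of Usp29, Zim1 and the unnamed locus over Zfp264. Each point is 1 library of 1 line and an x marks a line without a peak. H3K36me3 in TTF4 is 2.68 at Peg3 and 5.58 at Zim1.

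TTF lines averaged 1.99 ± 0.976 RPKM of H3K36me3 at Peg3 (SD, n = 2 lines) and PTC lines 3.44 ± 1.83 (SD, n = 2 lines). TTF minus PTC was -0.54 on the log2(RPKM + 1) scale, with an SE of 1.02, an interval from -2.55 to 1.46 and a limma adjusted p of 1. The locus over the start of Usp29 differed by -0.30 and that over Zfp264 by -0.20, both with an adjusted p of 1 by limma. None of the 3 was called, against a background of 0.112% of 17039 genes. After quantile normalization, which removes the level of the whole library, the difference at Peg3 was -0.39 with an SE of 0.23 and a limma adjusted p of 0.998. The 5 genes with H3K36me3 most like that of Peg3 were Gm11586, Chchd4, Ripk4, Zfp541 and Cdc42ep3, at root mean square differences of 0.0443 to 0.0697 over 4 lines on the log2 scale, among 17019 genes.

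H3K27me3, a mark of repressed genes, had a value at 11 to 144 genes per library. No member and neither locus had a value in any of the 4 libraries.

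Factors that act on imprints were described from the same marks. Of 8 listed, 4 had H3K4me3 in all lines and 5 had H3K36me3, and none passed the test in either direction. Over all genes tested, 0.481% passed for H3K4me3 and 0.112% for H3K36me3, so nothing is read from the absence of calls. Zfp57, which recruits silencing to methylated TGCCGC sites, had no H3K4me3 peak in any line, and H3K36me3 of 2.75 RPKM in PTC11, 7.17 in PTC12 and 8.56 in TTF4, with no peak in TTF1. Trim28, its cofactor, had H3K4me3 of 3.89, 4.54, 5.08 and 3.65 RPKM. Yy1 had 3.83, 7.01, 8.08 and 4.47 and Uhrf1, which brings the maintenance methyltransferase to replicated DNA, had 3.86, 7.01, 6.62 and 3.67. Dnmt1, that methyltransferase, had H3K4me3 of 1.79 in PTC12 only and H3K36me3 of 2.03, 3.88, 1.41 and 4.29. In H3K4me3, Yy1 and Uhrf1 were low in PTC11 and TTF4 and high in PTC12 and TTF1, as was the median of all genes. Of the 38 other imprinted genes, 16 had H3K4me3 and 30 had H3K36me3 in all lines. None passed the test, against the same 0.481% and 0.112% over all genes. Their median differences were 0.01 and -0.16, against 0.05 and -0.14 over all genes on the log2 scale.

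The lines carried H3K4me3 at most markers of pluripotent cells, with values at 7 to 9 of 10 per line. Of 10 markers of fibroblasts, which the feeder cells also express, 2 to 6 per line had a peak, with 4 in TTF4, and of 10 proximal tubule markers 1 to 3 did. Over all 43984 genes, 15114 (PTC11) to 19990 (PTC12) had an H3K4me3 value. H3K36me3 did not separate the lists, with values per line at 6 to 10 pluripotent, 6 to 9 fibroblast and 7 to 9 proximal tubule markers. The part of feeder cells in the fractions at Peg3 was not tested.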

How the data were processed

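CpG methylation and 3 histone marks were measured in 4 iPSC lines, 16 libraries in all. The fractions of methylated CpGs that the authors deposited came from nanopore reads called with Guppy and Nanopolish and aligned to mm10 with minimap2 (2.17-r941), averaged over windows within 1000 bp of each TSS. They were not centred between lines. The RPKM that the authors deposited came from reads aligned with Bowtie2 (2.1.0) and peaks called with MACS2 (2.0.10), counted with bedtools (2.17.0), minus the input RPKM. Neither table gives counts or coverage, so counting error is not known. The labels state 50000000 reads for each ChIP-seq sample, and the mapped reads behind a value cannot be recovered from RPKM averaged over peaks.

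H3K4me3 and H3K36me3 were compared between origins with limma (3.58.1 in R 4.3.3; eBayes with a variance trend) on log2(RPKM + 1), which understates changes of low genes, with Benjamini-Hochberg adjustment over all genes with a value in 4 lines and a threshold of 0.05. The script was tested on simulated data. Methylation was not tested, since it chose the members. The methods call the 2 methylation samples of an origin replicates from independent animals, and the cells came from littermates, but which line came from which animal is not stated, so p-values measure the spread between lines. The members and all lists were chosen with earlier results of these data known. Genes named were the members, other genes of the domain, the 5 nearest starts to each side of Peg3, the 5 genes most like Peg3 in methylation and in H3K36me3, listed imprinted genes and listed imprint factors. Gm9954, Olfr1346 and both unnamed loci fall outside this rule and were chosen after their values were seen, and a gene that this rule names is not reported here. CpGs, motifs and sequences were read from the GRCm38 (mm10) genome, with GENCODE annotation. Alternatives were another pseudocount, a filter on low RPKM, quantile normalization, no variance trend, genes with missing values, other scales of the fraction, and each line left out. Python 3.11.15 was used with numpy 2.4.6, pandas 2.3.3 and matplotlib 3.10.9.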

Additional observations from a re-analysis of the deposited data

How the results depend on the processing

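The deficit of TTF4 at Peg3 and Usp29, by which the members were chosen, kept its direction under all 7 alternatives. Nothing is read from this. TTF4 was the lowest line at both genes, so leaving out another line or taking TTF1 alone could not turn the direction. Subtracting the line means, of which that of TTF4 was the highest, could only enlarge the deficit. The deficit at Peg3 ranged from -0.71 with fractions minus the line mean to -0.339 without PTC12. At Zim1 and Zfp264 the higher level of TTF4 depended on the scale. With fractions minus the line mean it was 0.0611 at Zim1 and -0.0649 at Zfp264, as a rank within the line (0 to 1) -0.0579 and -0.138, and after quantile normalization -0.033 and -0.0962.

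For H3K4me3 at Peg3, leaving out each line gave -0.123 to 0.372 on the log2 scale, and turned the direction without PTC11 (-0.123) and without TTF1 (-0.0925). For H3K36me3 at Peg3 it gave -0.977 to -0.109. No alternative called Peg3 in either mark. The number of genes called by limma was 66 for H3K4me3 and 19 for H3K36me3. It was 102 and 44 with a pseudocount of 0.1, 467 and 68 with a value in at least 1 line of each origin, and 0 in both marks with a mean of at least 1 RPKM, with quantile normalization and without a variance trend. At an unadjusted p under 0.05 these 3 settings had 14, 317 and 3 genes for H3K4me3 and 4, 502 and 4 for H3K36me3. Leaving out a line gave 78 to 138 genes for H3K4me3, with 128 without PTC11, 110 without TTF1 and 138 without TTF4, and 1 (without TTF4) to 53 (without TTF1) for H3K36me3, with 35 without PTC11. A line left alone in its origin is assumed to vary like the other origin. No paired analysis was possible because the PTC and TTF lines carry no shared line number. With 1 library per line and no coverage, a difference between single fractions has no error.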
